A study of Mus musculus with 6 samples.

Results

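The genes described here are 10 members of the fibroblast growth factor (FGF) signalling system: the receptors Fgfr1, Fgfr2 and Fgfr3, the ligands Fgf2, Fgf7 and Fgf18, and the feedback genes Spry1, Spry2, Spry4 and Dusp6. They were chosen by gene symbol, with earlier results of these data known, from a table of 35976 genes. All 10 were found and passed the filter on low counts that left 13761 genes. Polyadenylated RNA came from chondrocytes, the matrix-producing cells of cartilage, of the hind limb articular cartilage of C57BL/6 x 129S4/SvJae mouse embryos at day 18.5. The cells were expanded on plastic for 16 population doublings, and both groups received doxycycline at 2 µg/ml throughout, which switched on a histone H3.3 transgene. In the H3K9M group (3 libraries, replicates 1, 3 and 5) lysine 9 of the transgenic histone was replaced by methionine, and the labels give H3K9 methylation as suppressed. In the H3WT group (3 libraries, replicates 1, 2 and 4) it was wild-type H3.3. The endogenous H3.3 genes were present in both groups, and the promoter that drives the transgene is not given in the sources used here. The comparison asks which transcripts differed between expanded chondrocytes with and without the mutant histone.

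FGF ligands bind receptor tyrosine kinases together with heparan sulfate, and the receptors signal mainly through adaptors to RAS and the ERK kinases. Active ERK signalling raises transcripts of its own inhibitors, among them the Sprouty proteins and the phosphatase Dusp6, so these genes are widely used as readouts of the pathway. In cartilage, Fgfr3 restrains the proliferation of growth plate chondrocytes, Fgf18 from the perichondrium is one of its main ligands, and Fgf2 is a mitogen often added to chondrocytes in culture. Fgf7 and its relative Fgf10 are made by mesenchymal cells and act chiefly on the splice form of Fgfr2 found in epithelia.

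Total counts ran from 15113675 to 19606082 per library. The libraries did not fall by genotype on the first principal component (35.5% of the variance), where one end was taken by H3K9M replicate 3 (score 51) with H3WT replicate 2 (49.1), far from H3WT replicates 1 (-56.2) and 4 (-51.5). On the second component (28.8%) the genotypes did not overlap, with scores of 19 to 39.8 for H3K9M and -71.5 to -11.4 for H3WT. All 12 chondrocyte markers were detected, and their summed level was 7340 to 11500 CPM (counts scaled to a common library size by TMM) in H3K9M and 7260 to 19400 CPM in H3WT. Of 7 skeletal muscle markers, 3 passed the filter, and the sum of all 7 was 12.2 to 102 CPM in H3K9M against 0.954 to 3.11 CPM in H3WT, with Myf5 and Pax7 at 0 counts in every library. The 5 osteoblast markers summed to 691, 2410 and 494 CPM in H3K9M and 658, 1020 and 1030 CPM in H3WT, nearly all of it Spp1. Ibsp and Sp7 had lower means in H3K9M, Spp1 and Dmp1 had higher means, and Bglap had at most 1 count. Endothelial markers summed to at most 0.825 CPM and epithelial markers to at most 2.56 CPM, and the 6 macrophage or blood markers summed to 5.07 to 21.3 CPM. Of these, Cd68 (up to 12.8 CPM), Cd14 (up to 9.7 CPM) and Csf1r (up to 3.71 CPM) were detected, and Ptprc, Adgre1 and Hbb-bs had 0 counts. Xist (56 to 407 CPM) and the Y-linked Ddx3y (30.7 to 79.9 CPM) were present together in every library, so each held RNA from both sexes. The H3.3 genes, which cannot report the mutated codon, had 801 ± 52.5 CPM (H3f3a) and 259.3 ± 3.21 CPM (H3f3b) in H3K9M and 840 ± 95.3 and 249.5 ± 6.85 CPM in H3WT (SD, n = 3 each). Labels do not say whether libraries of a group came from separate embryos or cultures, so the p-values measure the spread between these libraries only.

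The start regions of 4 of the genes are printed as examples of the behaviours described in the results that follow. Fgf7 is the ligand with the lower values in H3K9M, Fgf18 is a ligand whose groups overlapped, and Spry2 and Dusp6 are feedback genes that were highest in the same libraries. Each line gives the 250 bases before the annotated start, 5′ to 3′ on the gene's strand, from RefSeq (GRCm38.p6), with CpG dinucleotides in capitals.
Fgf7 (chr2:126034408-126034657, plus strand): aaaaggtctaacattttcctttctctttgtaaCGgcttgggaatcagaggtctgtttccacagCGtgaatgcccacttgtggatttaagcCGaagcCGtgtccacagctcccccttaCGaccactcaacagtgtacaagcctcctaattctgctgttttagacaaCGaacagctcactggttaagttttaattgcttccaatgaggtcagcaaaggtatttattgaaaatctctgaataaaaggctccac
Fgf18 (chr11:33147401-33147650, minus strand): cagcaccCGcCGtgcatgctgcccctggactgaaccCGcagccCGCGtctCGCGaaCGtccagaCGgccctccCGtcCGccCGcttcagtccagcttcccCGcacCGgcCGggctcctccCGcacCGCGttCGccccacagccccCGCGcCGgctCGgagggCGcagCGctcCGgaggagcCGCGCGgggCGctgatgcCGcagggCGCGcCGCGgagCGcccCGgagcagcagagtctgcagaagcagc
Spry2 (chr14:105896820-105897069, minus strand): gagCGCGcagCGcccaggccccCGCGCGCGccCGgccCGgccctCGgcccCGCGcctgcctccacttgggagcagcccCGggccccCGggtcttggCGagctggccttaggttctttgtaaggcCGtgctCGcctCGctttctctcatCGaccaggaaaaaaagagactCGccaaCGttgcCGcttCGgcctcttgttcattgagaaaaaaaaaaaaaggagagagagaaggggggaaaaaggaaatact
Dusp6 (chr10:99262981-99263230, plus strand): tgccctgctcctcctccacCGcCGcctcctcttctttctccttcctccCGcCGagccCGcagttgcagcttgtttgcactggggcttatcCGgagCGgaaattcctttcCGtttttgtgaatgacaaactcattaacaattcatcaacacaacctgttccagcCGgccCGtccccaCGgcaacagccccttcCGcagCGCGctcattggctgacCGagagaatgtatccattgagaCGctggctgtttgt
The Fgf7 window held 6 CpG, equal to the median of 6 over 32851 promoter windows of this length. The Dusp6 window held 16, that of Spry2 23 and that of Fgf18 37, and 97.8% of windows held fewer than that of Fgf18. None of these 4 windows held the letters CCGGAAG (an extended site of some ETS factors, in 6.91% of windows), TGANTCA (AP-1, 6.75%) or TGACGTCA (CRE, 1.55%) on either strand. Shorter or variant forms of these sites were not searched for. The GC box letters GGGCGG (32.7% of windows) were found once in the Fgf18 window and not in the other 3. Fgfr2 and Fgfr3, also with lower means in H3K9M, are not printed. The Fgfr2 window held 2 CpG, and those of the Fgfr3 start sites held 19 and 24. Whether CpG content goes with the difference between genotypes was not tested. These are descriptions of letters in a window and not of binding.

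In the comparison of the genotypes, 0 of the 10 genes passed an adjusted p of 0.05 (edgeR quasi-likelihood test, Benjamini-Hochberg adjustment over 13761 genes), as did 0% of all genes tested. At an unadjusted p under 0.05 there were 3 of the 10, Fgf7, Fgfr3 and Fgfr2, all with lower values in H3K9M, against 12.2% of all genes in either direction, 5.77% lower and 6.42% higher. In Fgfr2 and Fgf7 every H3K9M library lay below every H3WT library, a pattern found in 8.68% of tested genes, and the reverse pattern in 10.7%, or 19.4% in either direction. A share of 2 of 10 is thus close to the background in either direction. The median log2 fold change (H3K9M minus H3WT) was -0.16 over the 10 genes and -0.003 over all genes, with 6 of the 10 below 0, against 50.4% of all genes. The DESeq2 Wald test called 390 of the 13761 genes, among them 2 of the 10, Fgfr3 (adjusted p 0.0108) and Fgf7 (adjusted p 0.0314).

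**Figure D1:**
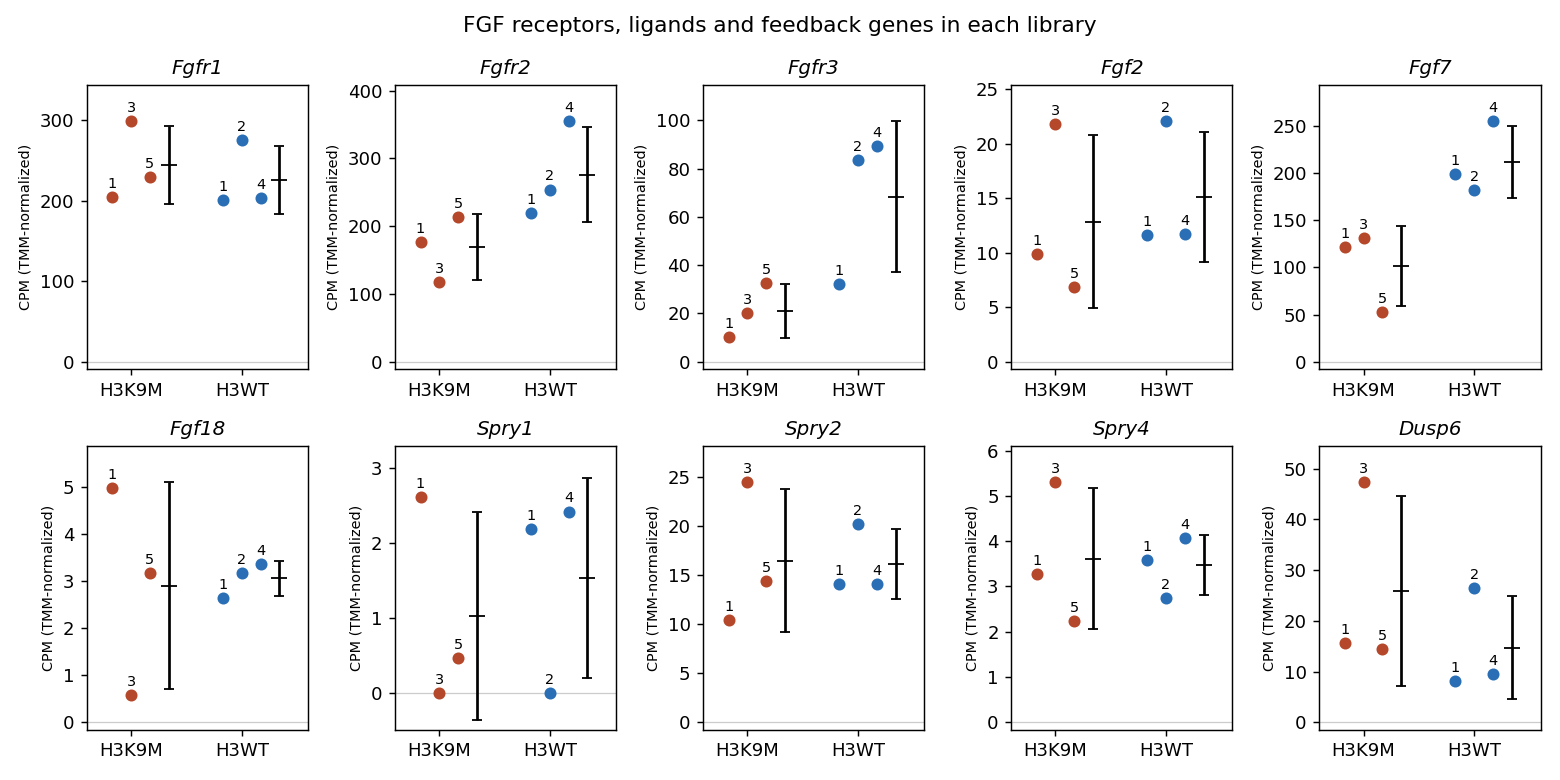
CPM of each of the 10 genes by group. Each point is a library with its replicate number, and the bar beside it is the mean ± SD of 3 libraries. The H3K9M points of Fgfr2 and Fgf7 lie below all H3WT points, and in Fgf2, Spry2 and Dusp6 the highest points are H3K9M replicate 3 and H3WT replicate 2.

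Levels per kilobase of the longest annotated transcript allow the genes to be ranked against each other. Fgf7 stood highest, at 58.7 ± 26.4 CPM per kilobase over the 6 libraries, followed by Fgfr2 at 50.3 ± 18.0 and Fgfr1 at 46.7 ± 8.32. These spreads include the difference between the genotypes, and genes were not tested against each other. The order of their means differed between the genotypes. In H3K9M it was Fgfr1 (48.5 ± 9.66), Fgfr2 (38.2 ± 11) and Fgf7 (38.0 ± 15.9), and in H3WT Fgf7 (79.4 ± 14.3), Fgfr2 (62.3 ± 15.9) and Fgfr1 (44.9 ± 8.37; SD, n = 3 each). Fgf7 was above Fgfr2 and Fgfr1 in every H3WT library, but the order within H3K9M changed by library. There Fgf7 was above Fgfr2 in replicates 1 (45.3 against 40) and 3 (49 against 26.4), and below it in replicate 5 (19.8 against 48.2). Over the 6 libraries Fgfr3 came next at 10.5 ± 7.87, with Spry2 at 7.81 ± 2.46 and Dusp6 at 7.25 ± 5.29 within its spread. Fgf18 (2.74 ± 1.30) and Fgf2 (2.34 ± 1.07) were lower, and their order varied by library. Fgf2 was above Fgf18 in H3K9M replicate 3 (3.66 against 0.534) and H3WT replicate 2 (3.69 against 2.91), and below it in the others. Spry4 (0.745 ± 0.226) and Spry1 (0.461 ± 0.452) were lowest. Per length, the cells carried mostly Fgfr1 and Fgfr2 among the receptors and Fgf7 among the 3 ligands.

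Fgfr1, the receptor gene that varied least, lies on chromosome 8 (25513654 to 25575718, plus strand, GRCm38). It had 205, 299 and 230 CPM in H3K9M replicates 1, 3 and 5 and 201, 275 and 203 CPM in H3WT replicates 1, 2 and 4. The groups overlapped, and the highest library of each was H3K9M replicate 3 and H3WT replicate 2. H3K9M differed from H3WT by 0.11 on the log2 scale (SE 0.19, edgeR adjusted p 0.861). Its range over the 6 libraries, 0.575 on the log2 scale, was below the median range of all tested genes (0.855).

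Fgfr2 had 177, 117 and 213 CPM in H3K9M and 219, 254 and 355 CPM in H3WT. The groups did not overlap, though H3K9M replicate 5 and H3WT replicate 1 were neighbours. The difference of H3K9M from H3WT was -0.71 on the log2 scale (SE 0.26, unadjusted p 0.0263, adjusted p 0.347, edgeR), a level 1.63-fold higher in H3WT. Without H3WT replicate 4 it was -0.48 and without H3K9M replicate 3 -0.49. Gene counts do not separate the splice forms of Fgfr2 that bind different ligands. Some annotated Fgfr2 models in GENCODE share exons with Ctbp2, so its count is uncertain to that extent.

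Fgfr3 differed most in level among the receptors. It had 10.4, 20.3 and 32.6 CPM in H3K9M and 32.3, 83.5 and 89.4 CPM in H3WT. H3WT replicate 1 stood at the level of H3K9M replicate 5, so the groups met there, and the other 2 H3WT libraries were well above every H3K9M library. On the log2 scale H3K9M stood at -1.69 relative to H3WT (SE 0.52, unadjusted p 0.0158, adjusted p 0.297, edgeR), a level 3.24-fold higher in H3WT. Over the fits that left out 1 library it ran from -2.14 to -1.37. The summed chondrocyte markers were 7340, 7830 and 11500 CPM in H3K9M and 7260, 19400 and 13600 CPM in H3WT, with the highest values in the same 2 H3WT libraries as Fgfr3. Most of this sum was Col2a1 (14100 and 9900 CPM in these 2). The other markers of the set were also highest there, except Acan, Col9a3 and Matn3. Acan had 210 CPM in H3WT replicate 4, against 251 and 470 CPM in H3K9M replicates 1 and 5. The summed skeletal muscle markers were higher in every H3K9M library, at 49.6, 102 and 12.2 CPM in H3K9M and 0.954, 3.11 and 1.65 CPM in H3WT, and the part of either marker set in the Fgfr3 difference was not tested. In bulk RNA, fewer cells expressing a gene and less RNA per cell cannot be told apart. Fgfr3 spans 33721674 to 33737068 of chromosome 5 (plus strand) and overlaps G630022F23Rik on the opposite strand, and the strand setting of the counting is not given in the sources used here.

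The make-up of the receptor transcripts does not depend on the scaling between libraries, and was taken as each receptor's share of the counts per length of Fgfr1 to Fgfr4. Fgfr1 made up 48.8%, 65.3% and 44.8% in H3K9M and 41%, 41.1% and 28.4% in H3WT. All H3K9M libraries lay above all H3WT libraries, with means of 53.0% ± 10.9 and 36.8% ± 7.30 (SD, n = 3 each, exact two-sided permutation p 0.1). Fgfr3 made up 2.94%, 5.27% and 7.53% in H3K9M and 7.85%, 14.8% and 14.8% in H3WT, again without overlap (exact two-sided permutation p 0.1). With 3 libraries against 3, 0.1 is the smallest p this test can give, and after adjustment over the 8 shares tested in the receptor and Sprouty families both were 0.4. The Fgfr2 share overlapped between the groups, at 41.5% ± 10.7 and 50.2% ± 6.63 (exact permutation p 0.4). Fgfr4 took under 1% in every library, from 0.0871% to 0.905%. These shares sum to a whole, so a higher share of Fgfr1 and lower shares of Fgfr3 and Fgfr2 are not separate measurements.

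**Figure D2:**
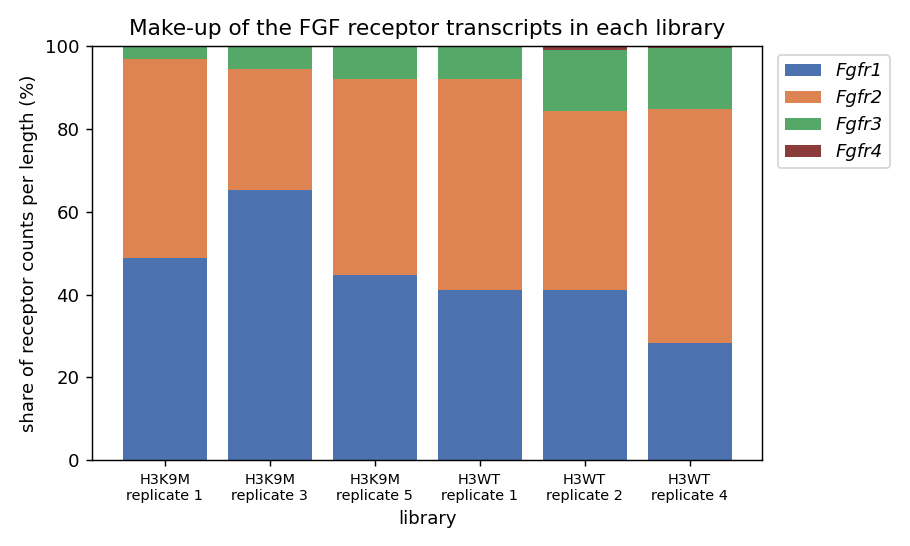
Share of each FGF receptor in the receptor counts per kilobase, as stacked bars for the 6 libraries. Fgfr1 takes 44.8% to 65.3% in the H3K9M libraries and 28.4% to 41.1% in the H3WT libraries, and Fgfr3 takes its largest shares, 14.8%, in H3WT replicates 2 and 4.

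Among the 3 ligands Fgf2, Fgf7 and Fgf18, Fgf7 (keratinocyte growth factor) was the most abundant and the one whose groups did not overlap. It had 121, 131 and 53 CPM in H3K9M and 199, 182 and 255 CPM in H3WT. Every H3WT library lay above every H3K9M library, and H3K9M replicate 5 was lowest. The log2 difference was -1.06 (SE 0.33, unadjusted p 0.0146, adjusted p 0.293, edgeR), a level 2.09-fold higher in H3WT. Leaving out H3K9M replicate 5 gave -0.74 and leaving out H3K9M replicate 3 gave -1.28, the extremes over the 6 libraries. Fgf7 spans 126034658 to 126091185 of chromosome 2 (plus strand). The gene on its opposite strand, Fam227b, had at most 3 counts in any library.

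Fgf2 had 9.91, 21.8 and 6.84 CPM in H3K9M and 11.6, 22.1 and 11.7 CPM in H3WT. The groups overlapped through 1 H3K9M library, since H3K9M replicates 1 and 5 lay below every H3WT library. H3K9M replicate 3 and H3WT replicate 2 were at least 1.86-fold above the other 4 libraries. Between genotypes the log2 difference was -0.23 (SE 0.47, edgeR adjusted p 0.886), and it ran from -0.85 without H3K9M replicate 3 to 0.15 without H3WT replicate 2. Fgf2 shares exon sequence with Nudt6 on the opposite strand, which had 4.62, 6.57 and 5.56 CPM in H3K9M and 2.53, 6.07 and 3.12 CPM in H3WT. Reads of the 2 genes could have been divided between them.

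Fgf18 had 4.96, 0.58 and 3.16 CPM in H3K9M and 2.64, 3.17 and 3.36 CPM in H3WT. The H3WT libraries were close together, and the H3K9M libraries held both the highest and the lowest value. Their log2 difference was -0.08 (SE 0.71, edgeR adjusted p 0.978). It turned to 0.42 without H3K9M replicate 3, which held 12 counts (95% exact Poisson interval 6.2 to 21), and to -0.70 without H3K9M replicate 1, which held 74 (58.1 to 92.9). These intervals cover counting error only.

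The feedback genes were next. Dusp6, the phosphatase that inactivates ERK, had 15.7, 47.4 and 14.4 CPM in H3K9M and 8.2, 26.4 and 9.48 CPM in H3WT. The highest value was in H3K9M replicate 3 and the next in H3WT replicate 2, so the groups overlapped. H3K9M exceeded H3WT by 0.82 on the log2 scale (SE 0.64, edgeR adjusted p 0.65). It depended on those libraries, at 0.04 without H3K9M replicate 3 and 1.56 without H3WT replicate 2 (adjusted p 0.26, edgeR). Dusp6 spans 99263231 to 99267489 of chromosome 10 and overlaps no annotated gene.

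Spry2, an inhibitor of the RAS-ERK pathway, had 10.4, 24.5 and 14.4 CPM in H3K9M and 14.1, 20.2 and 14.1 CPM in H3WT. The groups overlapped and the same 2 libraries were highest. Between genotypes the log2 difference was 0.03 (SE 0.33, edgeR adjusted p 0.983). Spry2 took 83.4% ± 9.86 of the Sprouty counts per length in H3K9M and 83.2% ± 9.52 in H3WT, and was the main Sprouty transcript in every library, with 72.1% to 94.2%.

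Spry4 had 3.28, 5.31 and 2.24 CPM in H3K9M and 3.59, 2.75 and 4.06 CPM in H3WT. The genotypes differed by 0.06 on the log2 scale (SE 0.47, edgeR adjusted p 0.976). Its highest value was again H3K9M replicate 3, but H3WT replicate 2 was low. Spry1 was lowest in the 2 libraries where Dusp6 was highest. It had 39, 0 and 9 counts in H3K9M and 39, 0 and 41 counts in H3WT, and the libraries with 0 counts were H3K9M replicate 3 and H3WT replicate 2. With 3 counts taken as the limit for a count of 0, these libraries held up to 0.145 and 0.156 CPM. H3K9M replicate 5 had 0.459 CPM, and H3K9M replicate 1 and H3WT replicates 1 and 4 had 2.19 to 2.61 CPM. The log2 difference of -0.60 had an SE of 1.71 (edgeR adjusted p 0.927), so a difference of the genotypes was not detectable at this spread. It was -2.71 without H3K9M replicate 1 and 0.01 without H3K9M replicate 3.

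Taken by library and not by genotype, 4 of the 10 genes (Fgfr1, Fgf2, Spry2 and Dusp6) had their highest 2 values in H3K9M replicate 3 and H3WT replicate 2, as did 9.46% of all tested genes. The lower of these 2 values exceeded the highest of the other 4 libraries 1.2-fold in Fgfr1, 1.4-fold in Spry2, 1.68-fold in Dusp6 and 1.86-fold in Fgf2. Of the 58 other FGF pathway genes tested, 5 showed this order (Sos2, Etv1, Etv5, Fosl1 and Ccnd1), no more than the background share. Ccnd1, which encodes cyclin D1, had 939 CPM in H3K9M replicate 3 and 818 CPM in H3WT replicate 2, against 362 to 465 CPM in the other 4. Etv5, an ETS factor induced by FGF signalling, had 56 and 38 CPM against 21 to 37.8 CPM, so that its second value barely exceeded the next. The same pair of libraries had the lowest sum of the 8 fibroblast markers (11900 and 9900 CPM against 23100 to 34700 CPM), a sum made up mainly of Col1a1, Col1a2 and Col3a1. Of the 8, Pdgfra (236 and 243 CPM against 89.6 to 182 CPM), Dcn (177 and 143 against 41.2 to 78.9) and Lum (144 and 101 against 29.1 to 75.1) were instead highest in this pair. The pair also had the lowest Ddx3y, a Y-linked gene (35.1 and 30.7 CPM against 46.1 to 79.9 CPM). Their part in this order was not tested. These libraries were singled out after their values were seen, and the labels give no batch to set beside them.

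**Figure D3:**
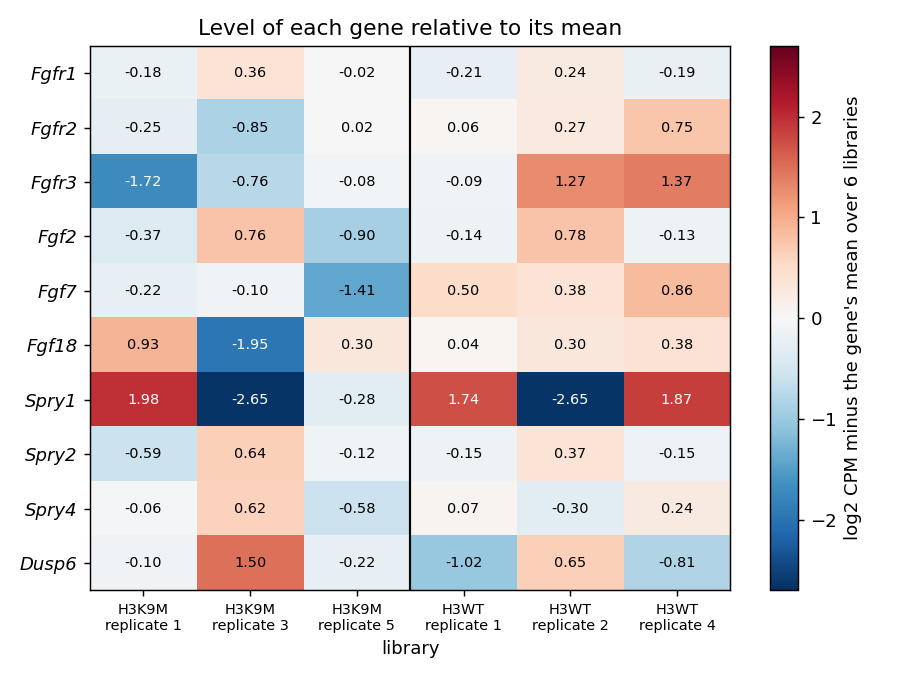
Level of each gene in each library as log2 CPM (prior count 2) minus the mean over the 6 libraries of that gene, with libraries in columns and the genotypes divided by a black line. H3K9M replicate 3 and H3WT replicate 2 are high for Fgf2 and Spry2 (0.37 to 0.78) and lowest for Spry1 (-2.65 in both).

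The wider pathway list held 73 further genes by role, of which 58 passed the filter on low counts and 0 passed an adjusted p of 0.05 (edgeR). At an unadjusted p under 0.05 there were 7, of which 4 had lower and 3 higher values in H3K9M, against 12.2% of all genes. Every H3K9M library lay below every H3WT library in 4 of the 58 and above in 2, against 8.68% and 10.7% of all tested genes. The median log2 fold change of the 58 was -0.06, with 34 below 0 against 50.4% of all genes, and the median of all genes was -0.003. With library size alone as the scaling, these medians were 0.01 and 0.053.

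Among other receptors and co-receptors, the largest difference was in Gpc3, which encodes glypican-3, a heparan sulfate proteoglycan of the cell surface. It had 9.24, 3.33 and 9.64 CPM in H3K9M and 26.8, 29.3 and 35.5 CPM in H3WT, with no overlap. Its log2 difference was -2.04 (SE 0.39, unadjusted p 0.00078, adjusted p 0.171, edgeR), and DESeq2 called it (adjusted p 8.77e-05). Sdc2, a syndecan, had 234, 293 and 234 CPM against 284, 371 and 414 CPM (log2 fold change -0.49, adjusted p 0.324, edgeR). Flrt2, a transmembrane protein whose family binds FGF receptors, went the other way, with 162, 329 and 210 CPM in H3K9M and 76.2, 170 and 55.6 CPM in H3WT (1.22, adjusted p 0.385, edgeR). It was 0.90 without H3K9M replicate 3 and 1.84 without H3WT replicate 2. Of the 10 co-receptors tested, 8 had a log2 fold change below 0 and 2 above, against 50.4% of all tested genes below 0. Of the 8, only Gpc3 and Sdc2 had an unadjusted p under 0.05 (edgeR). The decoy receptor Fgfrl1 had 78.4 to 87.4 CPM in H3K9M and 74.4, 135 and 130 CPM in H3WT (log2 fold change -0.45, adjusted p 0.447, edgeR). Fgfr4 had at most 1.17 CPM in H3K9M and at most 4 CPM in H3WT. Kl and Klb, the co-receptors of the hormone-like FGFs, had 0 counts in every library.

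Of 15 further secreted ligands, 6 had 0 counts in every library (Fgf3, Fgf4, Fgf6, Fgf15, Fgf16 and Fgf20) and 4 passed the filter. Fgf10, which shares the Fgfr2 splice form with Fgf7, had 2.81, 5.02 and 7.75 CPM in H3K9M and 15.8, 15.2 and 14.3 CPM in H3WT. The groups did not overlap and the H3WT libraries were close together. Their log2 difference was -1.53 (SE 0.37, unadjusted p 0.00296, adjusted p 0.216, edgeR), a level 2.88-fold higher in H3WT, and DESeq2 called it (adjusted p 0.0105). Fgf10 and Fgf7 thus both had every H3K9M value under every H3WT value, as did 8.68% of all tested genes. Neither passed the adjusted threshold with edgeR. Fgf5 was listed at 0 counts in 1 H3K9M library and reached 9.9 CPM in H3WT replicate 4, while Fgf22 stayed at or under 1.54 CPM everywhere. The intracellular FGF relatives Fgf13 and Fgf11 had log2 fold changes of -0.60 and 0.47 (adjusted p 0.808 and 0.885, edgeR). The FGF-binding proteins Fgfbp3 and Fgfbp1 were low, at 1.61 to 6.48 CPM and 0 to 2.37 CPM.

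The adaptors and the kinase cascade differed little between the genotypes, though single genes varied between libraries (Braf from 52.5 to 127 CPM). In the 10 adaptors log2 fold changes ran from -0.35 (Frs3) to 0.03, and in the 10 genes from Ras to Erk from -0.33 (Braf) to 0.26 (Nras), with 0 of the 20 at an unadjusted p under 0.05. Ptpn11, the phosphatase SHP2 that relays receptor signals, had the smallest p of these (log2 fold change -0.27, SE 0.12, adjusted p 0.42, edgeR), followed among the adaptors by Gab1 (-0.25). In the other feedback genes the values pointed both ways. Dusp5, a nuclear ERK phosphatase, had 7.84, 20.4 and 9.44 CPM in H3K9M and 3.54, 6.28 and 5.24 CPM in H3WT, with no overlap (log2 fold change 1.32, SE 0.43, adjusted p 0.29, edgeR). Dusp7 had 45.8, 66.4 and 57.4 CPM against 77.2, 92.9 and 64 CPM (-0.47, SE 0.19, adjusted p 0.382, edgeR), and Dusp9 had a log2 fold change of -0.85 (adjusted p 0.615, edgeR). Among the transcriptional targets, Etv4 had 9.31, 10.6 and 7.3 CPM in H3K9M and 6.46, 4.62 and 5.3 CPM in H3WT, again without overlap (0.73, SE 0.30, adjusted p 0.382, edgeR). Egr1 (0.30) and Fosl1 (0.33) had adjusted p-values of 0.582 and 0.712 (edgeR). Of the 9 transcriptional targets tested, 6 had a log2 fold change above 0 and 3 below, against 50.4% of all genes below 0. Their median was 0.08, and Fos was lowest (-0.34).

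**Figure D4:**
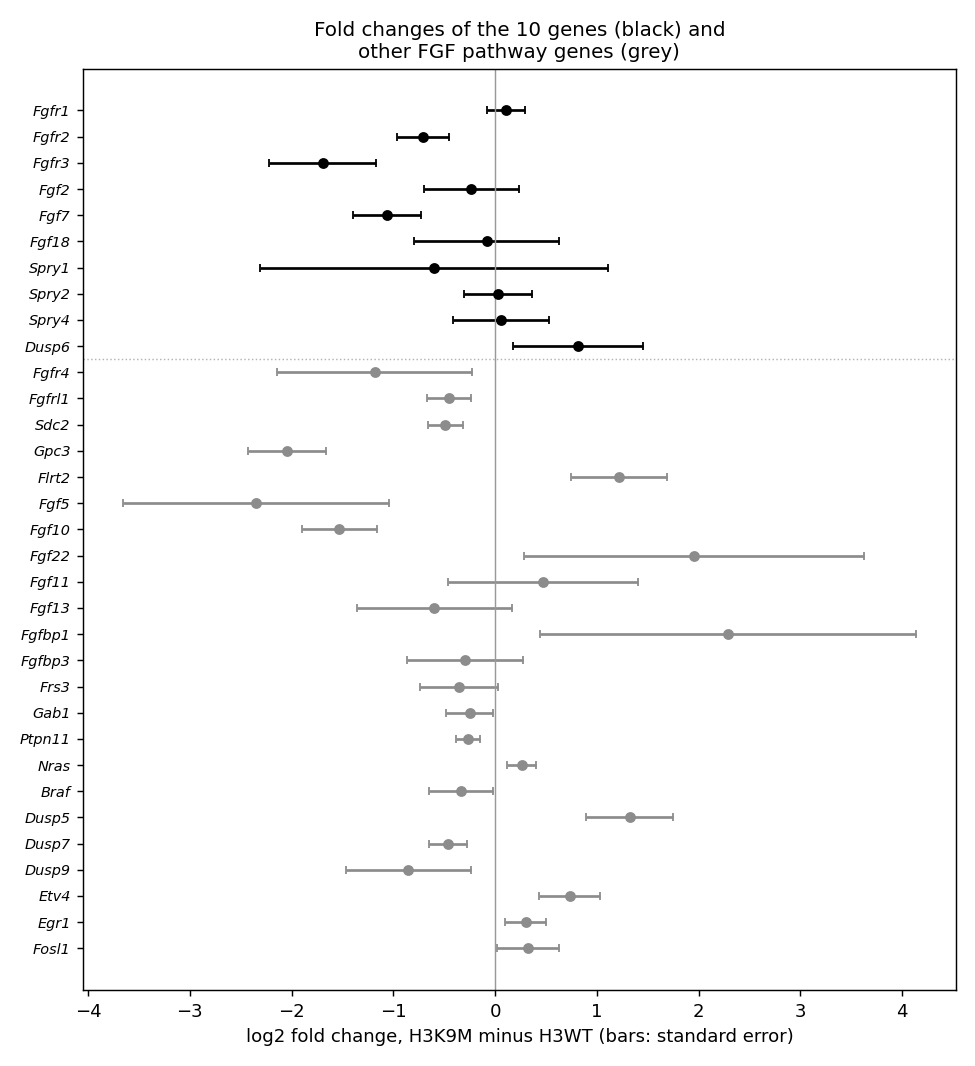
Log2 fold change (H3K9M minus H3WT) with its standard error for the 10 genes in black and for other pathway genes in grey. Fgfr2, Fgfr3, Fgf7, Fgf10 and Gpc3 lie to the left of 0, Dusp5 and Flrt2 to the right, and none passed the adjusted threshold with edgeR.

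For each of the 9 genes whose log2 CPM ranged over more than 1 across the libraries, the 2 tested genes with the smallest root-mean-square difference of centred log2 CPM over the 6 libraries were taken as most alike in pattern. For Fgfr3 these were Sox8 (0.318) and Oplah (0.349), for Fgfr2 Ispd (0.106) and Glcci1 (0.109), and for Fgf7 Tcn2 (0.196) and Efna2 (0.208). For Dusp6 they were Asb4 (0.151) and Tspan6 (0.193), for Spry2 Mef2a (0.102) and Trmt10b (0.105), and for Fgf2 Nek10 (0.0615) and Loxl3 (0.123). For Fgf18 they were Egln3 (0.179) and Gm36166 (0.247), for Spry1 Rgcc (0.351) and Gzme (0.497), and for Spry4 Cbr1 (0.0566) and Sh3bp5 (0.114). With 6 libraries and 13761 genes, close matches arise for many patterns.

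Counts can also be divided between near-identical transcripts. For 7 of the 10 genes no transcript of another gene matched the longest transcript at 90% identity or more over at least 200 bases. In Fgfr3, Fgf2 and Spry1 such matches were found, all but that of Nvl with Fgfr3 belonging to a gene that overlaps the member, and the counts of these 3 are uncertain to that extent.

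As a check of the cell label, Sox9, the cartilage transcription factor, had 114 to 181 CPM in H3K9M and 145 to 285 CPM in H3WT (log2 fold change -0.60, adjusted p 0.429, edgeR). Col2a1 ranged from 4910 to 14100 CPM and Acan from 136 to 722 CPM, both highest in H3WT replicate 2. Col1a1, a fibroblast collagen, ranged from 3680 to 18900 CPM and was lowest in H3WT replicate 2 and H3K9M replicate 3. The defining genes of cartilage were thus expressed in every library beside a high level of fibroblast collagen.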

How the data were processed

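The authors deposited unnormalized counts of reads for each gene symbol, with a column for every library. HISAT2, featureCounts, DESeq2 and the build mm10 are named in the submitters' processing notes, without role or version, and the annotation and strand setting are not given in the sources used here. Each column name matched 1 sample title, and 0 columns belonged to other samples. The total count per library sets the precision, and 3 counts were taken as the floor.

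The test was edgeR 4.0.16 in R 4.3.3, with filterByExpr, TMM scaling and a robust quasi-likelihood fit of genotype over the 6 libraries. Adjustment was by Benjamini-Hochberg across all 13761 tested genes (threshold 0.05). The standard error is the log2 fold change divided by the square root of the F statistic. CPM was computed from the counts. Shares and levels per kilobase used the longest GENCODE M21 transcript (GRCm38), and blastn 2.17.0 was used to look for similar transcripts. Promoter windows came from RefSeq.

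Alternatives were DESeq2 1.42.0, limma-voom (limma 3.58.1), 2 other scalings, 2 other filters and leaving out each library. Leaving out both H3K9M replicate 3 and H3WT replicate 2 was added after the data were seen. The fitting was tested on simulated counts. The 10 genes and the pathway and marker lists were chosen with earlier results of these data known. Named genes were the 10, up to 3 per pathway role with the smallest unadjusted p, Sox9, Acan, Col2a1, Col1a1, the H3.3 genes and, by pattern, the 2 nearest genes of each variable gene. Dusp4, Sos2, Etv1, Etv5, Ccnd1, the single markers and the overlapping genes were named after their values were seen. One gene that the rule would name is not reported here.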

Additional observations from a re-analysis of the deposited data

How the results depend on the processing

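No paired analysis was possible because the groups share only replicate number 1 in the labels. The count of called genes was 0 over all genes, 0 of the 10 FGF genes and 0 of the 58 pathway genes, and these counts were also 0 with limma-voom, library size alone, DESeq2's size factors and at least 10 counts in every library. DESeq2 called 390 of 13761 genes, 2 of the 10 and 2 of the 58 pathway genes (Gpc3 and Fgf10), and the cause was not tested. Testing every gene with a count called 36 genes in all and 0 of the FGF lists. Leaving out 1 library gave 0 to 91 genes in all (91 without H3WT replicate 2, 2 without H3K9M replicate 3) and 0 of either FGF list. Leaving out both of those libraries called 302 of 13821 genes, 2 of 57 pathway genes and 0 of the 10. These 2 pathway genes were Gpc3 (log2 fold change -1.71, adjusted p 0.0189, edgeR) and Flrt2 (1.51, adjusted p 0.018, edgeR). The direction of Fgfr2, Fgfr3, Fgf7 and Dusp6 held under every alternative run. That of Spry2 turned with limma-voom (-0.001), and so did that of Col1a1 (0.056). Without both libraries the signs of Fgf18 (0.45), Spry2 (-0.17), Spry4 (-0.46), Fgf11 (-1.08), Acan (1.07) and H3f3a (0.08) turned. With 1 library left out, signs turned within these ranges of the log2 fold change: Fgfr1 -0.048 to 0.286, Fgf2 -0.85 to 0.15, Fgf18 -0.70 to 0.42, Spry1 -2.71 to 0.007, Spry2 -0.37 to 0.27, Spry4 -0.32 to 0.32, Fgf11 -0.80 to 0.89, Fgfbp3 -0.972 to 0.002 (the lower with both libraries left out, -0.696 with 1), Fosl1 -0.035 to 0.596, Acan -0.74 to 0.79, Col1a1 -0.50 to 0.48 and H3f3a -0.14 to 0.03. The difference in share (H3K9M minus H3WT, percentage points) turned for Fgfr4 (-0.362 to 0.047), Spry1 (-5.31 to 1.52), Spry2 (-3.31 to 5.84), Spry3 (-0.349 to 1.84) and Spry4 (-1.06 to 1.26), and for Spry2 without the division by length (-0.358). The share of Fgfr1 kept its sign (9.96 to 20.2), as did that of Fgfr3 (-9.57 to -6.09). That of Fgfr2 kept its sign but moved from -8.72 to -2.53 without H3K9M replicate 3 and to -12.2 without H3WT replicate 2.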

Other observations

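A few pathway genes had a level in 1 library that stood far from the rest, and these were picked after their values were seen. Dusp4, another nuclear ERK phosphatase, had 171 counts in H3K9M replicate 3 (8.26 CPM) and 3 to 17 counts in the other 5 libraries (0.153 to 0.898 CPM). Fgf13 had 0.821 CPM in H3K9M replicate 3 and 7.37 to 13.3 CPM elsewhere. Fgf5 had 9.9 CPM in H3WT replicate 4 and at most 2.47 CPM in the others. Fgf1 had 47 counts in H3WT replicate 2 and 3 to 10 counts elsewhere, and Fgf14 had 18 counts in H3K9M replicate 3 and 0 in the other 5 libraries.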
